A study of Mus musculus with 3 samples.

Results

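Messenger RNA for 10 heat shock chaperones of the cytosol and the mitochondrion was described in mouse liver: Hsp90aa1, Hsp90ab1, Hspa1a, Hspa1b, Hspa8, Hsph1, Hspb1, Dnajb1, Hspd1 and Hspe1. They were taken by gene symbol and make up 10 of the 23850 rows of each deposited table, with 1 row and a usable estimate for every gene in every library. The study sequenced total RNA depleted of ribosomal RNA from livers of mice aged 16 weeks on a C57BL6J/FVB background. The Ercc1 DR library came from Ercc1 delta/- mice under diet restriction, the Ercc1 AL library from Ercc1 delta/- mice fed ad libitum, and the wt AL library from wildtype mice fed ad libitum. Ercc1 encodes a subunit of a DNA repair endonuclease, and the mutants carry a null allele beside another mutant allele. There was 1 library for each of the 3 groups, and the labels do not say how many animals it holds, nor their sex. The spread between animals is therefore unknown, and the comparisons are given as values without a test, a p-value or an SD. Livers are called fresh in the study's design text and flash frozen in its extraction protocol.

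Heat shock proteins are molecular chaperones that hold unfolded proteins, help them fold and pass them on for degradation. The transcription factor HSF1 raises the inducible members after heat and other protein-damaging stress by binding heat shock elements, which are inverted repeats of the letters GAA in their promoters. Other members, such as Hspa8, Hsp90ab1 and the mitochondrial chaperonin pair Hspd1 and Hspe1, are made all the time in liver, where the output of secreted and metabolic enzymes is large.

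Promoter sequences from RefSeq on GRCm38.p6 were on hand for 7 of the 10 genes, each window holding 250 bases before and 50 after a transcript start. Hsp90aa1, Hsp90ab1 and Hspa8 had no entry. Windows were searched on both strands for the paired element as GAANNTTC or TTCNNGAA, overlapping matches counted separately, and for the 3-unit element, in which GAANNTTC is followed by TTCNNGAA and both share the same TTC. At least 1 pair stood in 7 of 10 windows of these genes, beside 15.1% of all 32851 promoter windows in the table. The 3-unit element stood in 4 of the 10 windows, of Hspd1, Hspe1 and Hsph1, beside 0.603% of all windows. These windows are not separate stretches of DNA. Those of Hsph1 overlap and hold the same matches, and the Hspe1 match is also that of an Hspd1 window. Counted by gene, 6 of 7 had a pair and 3 had a 3-unit element in any window. The other Hspd1 window held no pair. Dnajb1 had no pair in either of its windows. Below stand the window of Hspe1, which also covers the start region of Hspd1, those of Hsph1 and Hspb1, the genes called lower, and that of Hspa1b, the classic heat-induced gene, each with the matched pairs in capitals.
Hspe1, chr1:55087898-55088197, plus strand: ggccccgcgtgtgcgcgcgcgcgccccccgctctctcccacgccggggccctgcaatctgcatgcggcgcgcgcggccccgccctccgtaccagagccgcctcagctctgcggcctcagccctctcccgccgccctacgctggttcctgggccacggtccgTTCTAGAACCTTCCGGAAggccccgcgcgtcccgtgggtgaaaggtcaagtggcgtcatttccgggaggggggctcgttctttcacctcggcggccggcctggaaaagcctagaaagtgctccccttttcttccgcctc
Hsph1, chr5:149636287-149636586, minus strand: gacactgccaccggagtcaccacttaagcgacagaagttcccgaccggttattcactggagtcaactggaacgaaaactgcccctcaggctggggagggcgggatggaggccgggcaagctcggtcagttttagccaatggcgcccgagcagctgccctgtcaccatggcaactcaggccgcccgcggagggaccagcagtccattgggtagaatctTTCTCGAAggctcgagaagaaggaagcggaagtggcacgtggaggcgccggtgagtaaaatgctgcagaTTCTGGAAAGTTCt
Hspb1, chr5:135887669-135887968, plus strand: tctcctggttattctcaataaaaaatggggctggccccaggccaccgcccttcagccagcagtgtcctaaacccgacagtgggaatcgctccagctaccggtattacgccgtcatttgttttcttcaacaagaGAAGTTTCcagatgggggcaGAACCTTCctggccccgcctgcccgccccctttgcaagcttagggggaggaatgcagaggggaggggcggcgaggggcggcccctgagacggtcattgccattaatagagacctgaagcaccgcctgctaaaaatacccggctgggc
Hspa1b, chr17:34959189-34959488, minus strand: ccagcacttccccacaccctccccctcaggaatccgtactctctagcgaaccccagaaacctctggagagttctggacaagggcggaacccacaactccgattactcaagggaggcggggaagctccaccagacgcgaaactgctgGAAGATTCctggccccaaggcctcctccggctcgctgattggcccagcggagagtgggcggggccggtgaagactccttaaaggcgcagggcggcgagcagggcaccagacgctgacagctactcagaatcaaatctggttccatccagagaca

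Hspd1 and Hspe1 are transcribed away from each other, and the capitals in the Hspe1 window also lie in a window of Hspd1 on the other strand. The matches began at positions -89, -84 and -79 from the Hspe1 start and at -144, -139 and -134 from that Hspd1 start. The windows of Hspa1a and Hspa1b differed at 4 of 300 bases and held the same single pair at position -104. A match describes letters in these windows only, and genes that hold one are found among both the higher and the lower genes.

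Levels are FPKM, which divides fragments by transcript length and by the mapped total, and each deposited FPKM comes with a lower and an upper bound that cover counting and assignment within 1 library. Ratios are log2 of FPKM + 1, which understates the ratio of low genes. The general level of genes differed between libraries, with a median log2 ratio over 9109 genes at 1 FPKM or more in all libraries of 0.49 for Ercc1 AL against wt AL, 0.33 for Ercc1 DR against Ercc1 AL and 0.78 for Ercc1 DR against wt AL. Ratios below are after this shift was taken out unless called as deposited, so they are relative to the typical gene. A gene is called past 2-fold when its log2 ratio is at least 1 in size. All 10 chaperones passed the filter of 1 FPKM in either library in every comparison. The 3 comparisons share libraries, so their values for a gene are not independent of each other.

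Most of the chaperones stayed within 2-fold of the typical gene, and the exceptions went in opposite directions. Hspb1, the small heat shock protein, was lower in Ercc1 DR than in Ercc1 AL, and lower in Ercc1 AL than in wt AL. The mitochondrial pair Hspd1 and Hspe1 was highest in Ercc1 DR. Hsph1, the cytosolic HSP110, was highest in Ercc1 AL.

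**Figure D1:**
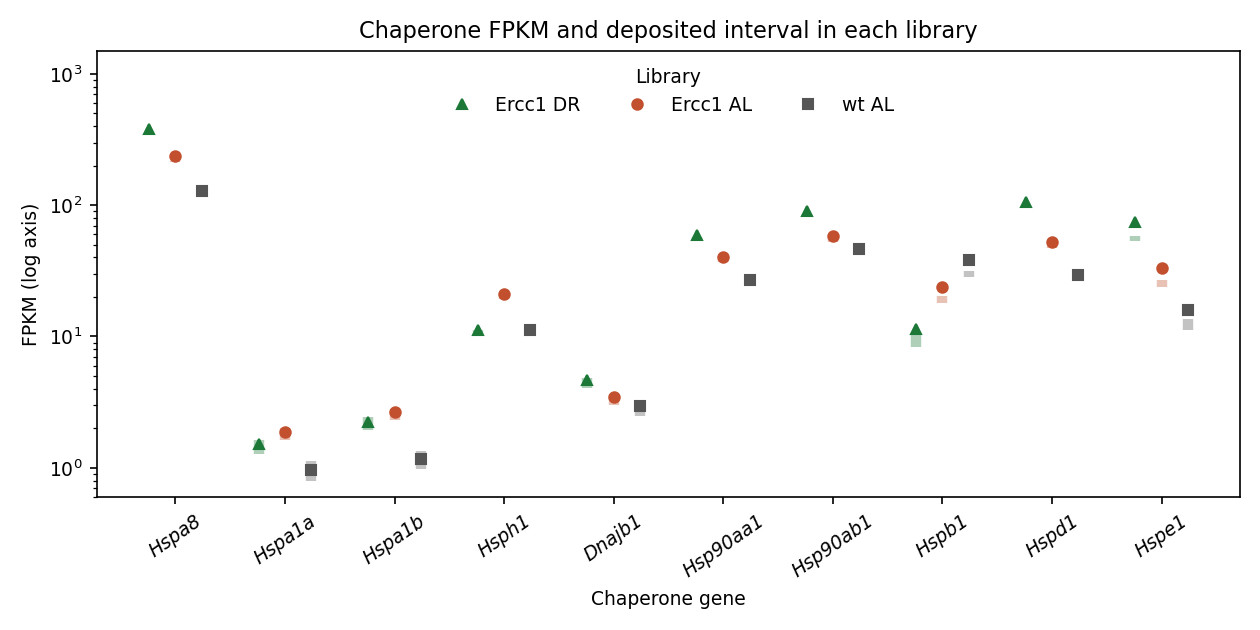
FPKM on a log axis of the 10 chaperone genes in the Ercc1 DR (triangles), Ercc1 AL (circles) and wt AL (squares) libraries, 1 library each, with the deposited interval as a shaded bar. Hspa8 was the most abundant in each library, at 378, 237 and 129 FPKM in that order, and Hspb1 runs against the order of Hspd1 and Hspe1.

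Hspa8, the constitutive cytosolic HSP70 (chromosome 9, 40801273 to 40805199 on mm10), was the most abundant of the 10 in every library. It was at 378 FPKM in Ercc1 DR, 237 FPKM in Ercc1 AL and 129 FPKM in wt AL, with intervals of 339 to 346, 213 to 218 and 115 to 120 FPKM. Its log2 ratio was 0.39 in Ercc1 AL against wt AL, 0.33 in Ercc1 DR against Ercc1 AL and 0.76 in Ercc1 DR against wt AL. These stayed within 2-fold, while as deposited the last was 1.54. Hspa8 made up 51.1% of the summed FPKM of the 10 genes in Ercc1 DR, 50.1% in Ercc1 AL and 42.6% in wt AL. Snord14c, Snord14d and Snord14e, small nucleolar RNAs, lie inside Hspa8 in GENCODE M21, and 74.8% of the 50-base stretches of its transcript also occur in transcripts of 13 other genes, so its reads may be shared.

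Hsph1 acts as a nucleotide exchange factor for HSP70 and holds unfolded protein (chromosome 5, 149616845 to 149636315). Its FPKM was 11.3 in Ercc1 DR (interval 10.3 to 11.3), 21.0 in Ercc1 AL (19.4 to 20.6) and 11.3 in wt AL (10.3 to 11.4). As deposited, the Ercc1 AL interval lay above those of Ercc1 DR and wt AL, which overlapped. The log2 ratio was 0.38 in Ercc1 AL against wt AL and -1.15 in Ercc1 DR against Ercc1 AL, past 2-fold lower. As deposited that ratio was -0.84 and not past 2-fold, and in Ercc1 DR against wt AL it was 0.00 as deposited and -0.72 after the shift. None of the 50-base stretches of its transcript occurred in another gene's transcript, and no other annotated gene overlapped its exons.

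Relative to Hspa8 in the same library, which does not depend on any scaling between libraries, Hsph1 stood at 2.99% in Ercc1 DR, 8.85% in Ercc1 AL and 8.73% in wt AL. Ercc1 AL and wt AL were thus close on this measure and Ercc1 DR was apart. The measure also moves with Hspa8, which was itself highest in Ercc1 DR. Dnajb1, a J-domain co-chaperone that stimulates the HSP70 ATPase (chromosome 8, 83608175 to 83611903), was low throughout. It was at 4.67 FPKM in Ercc1 DR (4.03 to 4.82), 3.48 FPKM in Ercc1 AL (2.99 to 3.65) and 2.94 FPKM in wt AL (2.49 to 3.09). The intervals of Ercc1 AL and wt AL overlapped, and its log2 ratios were -0.19, 0.07 and -0.09 in Ercc1 AL against wt AL, Ercc1 DR against Ercc1 AL and Ercc1 DR against wt AL. As deposited all 3 were above 0, at 0.19, 0.34 and 0.53. Dnajb1 is a strongly heat-inducible gene in mammalian cells.

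Hspa1a and Hspa1b encode the stress-inducible HSP70 and were the 2 lowest of the 10 in each library. Hspa1b (chromosome 17, 34956429 to 34959238) reached 2.25 FPKM in Ercc1 DR (1.95 to 2.43), 2.65 FPKM in Ercc1 AL (2.31 to 2.81) and 1.17 FPKM in wt AL (0.985 to 1.35). Hspa1a (chromosome 17, 34969359 to 34972156) reached 1.51 FPKM in Ercc1 DR (1.28 to 1.63), 1.89 FPKM in Ercc1 AL (1.63 to 2.02) and 0.959 FPKM in wt AL (0.791 to 1.12). As deposited, for both genes the intervals of the 2 mutant libraries overlapped, and both lay above that of wt AL. With the intervals rescaled, that of Ercc1 DR lay below that of Ercc1 AL and overlapped that of wt AL, for both genes. The rescaled Ercc1 AL interval stayed above that of wt AL.

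After the shift, the log2 ratios of Hspa1b and Hspa1a were 0.43 and 0.28 in Ercc1 AL against wt AL, and -0.40 and -0.41 in Ercc1 DR against Ercc1 AL. In Ercc1 DR against wt AL they were 0.10 and -0.07, and as deposited 0.58 and 0.36. The copies are near-identical: 62.3% of the 50-base stretches of the Hspa1b transcript occur in Hspa1a, so reads of the pair can be split between them in ways that are not known here. Their sum, formed after the values were seen, was 3.76 FPKM in Ercc1 DR, 4.54 FPKM in Ercc1 AL and 2.13 FPKM in wt AL, and its log2 ratios were 0.45, -0.48 and 0.03 in the 3 comparisons in the order above, or 0.82, -0.22 and 0.60 as deposited. Hspa1a also shares 564 exonic bases with Gm20481 on the other strand, and whether counting used strand is not known here.

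The cytosolic HSP90 genes stayed within 2-fold of the typical gene. HSP90 stabilises client proteins such as kinases and steroid receptors. Hsp90ab1, the constitutive form (chromosome 17, 45567778 to 45573261), reached 90.4 FPKM in Ercc1 DR (82.2 to 85.3), 58.0 FPKM in Ercc1 AL (52.6 to 55.1) and 46.7 FPKM in wt AL (42.2 to 44.5). Hsp90aa1, the more inducible form (chromosome 12, 110691036 to 110696395), reached 59.6 FPKM in Ercc1 DR (54.7 to 57.2), 40.2 FPKM in Ercc1 AL (36.8 to 38.7) and 27.0 FPKM in wt AL (24.5 to 26.4). As deposited the intervals of both genes did not overlap between any 2 libraries.

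The log2 ratios of Hsp90aa1 were 0.08 in Ercc1 AL against wt AL, 0.23 in Ercc1 DR against Ercc1 AL and 0.35 in Ercc1 DR against wt AL. Those of Hsp90ab1 were -0.17, 0.30 and 0.17 in the same order, and the first of these was 0.31 as deposited. The level of Hsp90ab1 over that of Hsp90aa1 was 1.52 in Ercc1 DR, 1.44 in Ercc1 AL and 1.73 in wt AL. Of the Hsp90aa1 transcript 58.5% of 50-base stretches, and of Hsp90ab1 4.49%, occur in other genes.

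Hspb1 encodes HSP25, an ATP-independent chaperone that binds unfolding proteins and actin (chromosome 5, 135887919 to 135889563). Its FPKM was 11.4 in Ercc1 DR (8.38 to 10.2), 23.9 in Ercc1 AL (17.9 to 20.2) and 38.0 in wt AL (28.6 to 31.8). The 3 intervals were apart from each other, in the opposite order to Hspa8. Its log2 ratio was -1.12 in Ercc1 AL against wt AL, -1.32 in Ercc1 DR against Ercc1 AL and -2.39 in Ercc1 DR against wt AL, past 2-fold lower each time. As deposited the first was -0.64 and within 2-fold, and the others were -1.01 and -1.65.

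Among genes with at least 1 FPKM, Hspb1 ranked 2701 from the top of 10887 in Ercc1 DR, 1418 of 11861 in Ercc1 AL and 922 of 10436 in wt AL. Set against Hspa8 in the same library, it stood at 3.03% in Ercc1 DR, 10.1% in Ercc1 AL and 29.4% in wt AL. Among the 10 chaperones it was by FPKM the third most abundant in wt AL and the sixth in both mutant libraries. By interval midpoint it stood below Hsph1 in both mutant libraries, at 0.86 of its level in Ercc1 DR and 0.95 in Ercc1 AL. Hsp25-ps1, a pseudogene, holds 51.6% of the 50-base stretches of the Hspb1 transcript and could share its reads.

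Summed endothelial markers had the same order of libraries as Hspb1. So did summed cholangiocyte markers, at 5.02, 5.16 and 8.04 FPKM in Ercc1 DR, Ercc1 AL and wt AL. Of the single cholangiocyte markers, only Krt7 and Cftr had that order. Krt19, Sox9 and Epcam ran in the reverse order, and Spp1 was lowest in Ercc1 AL. Summed neutrophil markers also had the order of Hspb1, at 3.24, 6.50 and 8.58 FPKM. That order came from Mpo, at 1.24, 3.50 and 6.41 FPKM. The other neutrophil markers with an estimate were all highest in Ercc1 AL. Summed Kupffer cell, stellate cell, lymphoid and erythroid markers did not share the order of Hspb1. The summed level of 10 endothelial markers was 16.8 FPKM in Ercc1 DR, 28.1 FPKM in Ercc1 AL and 36.0 FPKM in wt AL. None of the markers was at 0. Gpr182 had the widest range, at 1.49, 5.29 and 10.5 FPKM in that order. After the shift all 10 were below 0 in Ercc1 AL against wt AL. As deposited, Pecam1, Clec4g, Tie1 and Cdh5 were higher in Ercc1 AL than in wt AL, Cdh5 by little. Lyve1 was highest in Ercc1 DR as deposited. Of 9 markers measured in Ercc1 DR against wt AL, 5 were past 2-fold lower and none higher, beside 16.4% and 6.02% of all genes. As deposited 1 was lower, beside 8.63% of all genes. Among 12 immediate early genes, which respond to stimuli and to tissue handling, 4 were past 2-fold lower and none higher in that comparison. As deposited 3 were lower. The same shares of all genes apply to these counts. Fos was at 1.55, 4.31 and 5.94 FPKM in Ercc1 DR, Ercc1 AL and wt AL. Fosb and Zfp36 ran in the opposite order as deposited. Of 11 immediate early genes measured in Ercc1 DR against Ercc1 AL, 5 were above 0 and 6 below. Their median was -0.12, beside -0.06 over all genes. The part of any of these lists in the Hspb1 values was not tested. In bulk RNA, fewer cells of a type and less RNA per cell cannot be told apart.

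**Figure D2:**
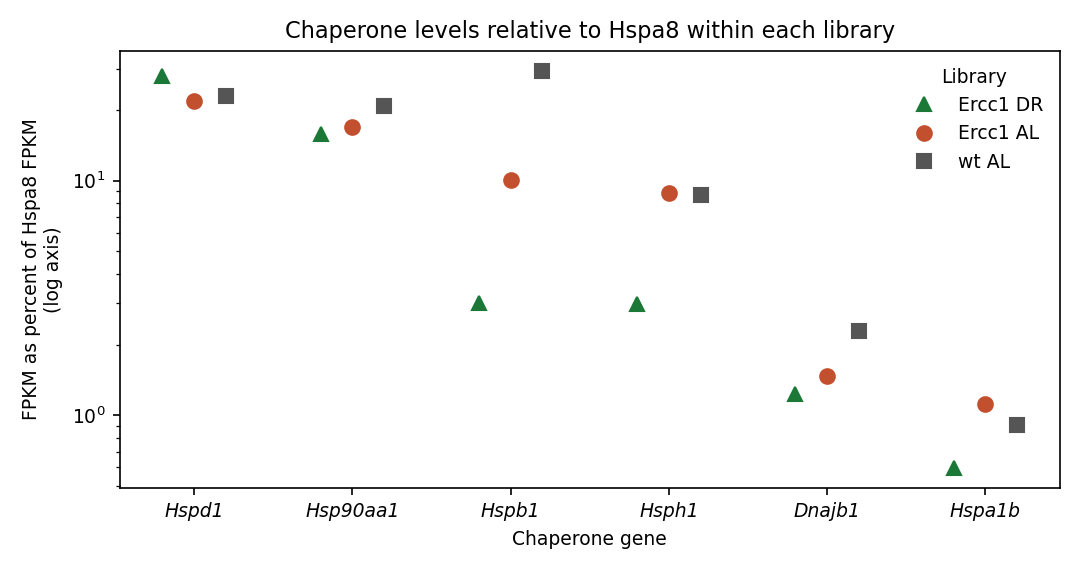
Level of 6 chaperone genes as a percent of the Hspa8 FPKM in the same library, on a log axis, for Ercc1 DR, Ercc1 AL and wt AL (1 library each). Hspb1 lies at 3.03%, 10.1% and 29.4%, and Hsph1 at 2.99% in Ercc1 DR, below 8.85% in Ercc1 AL and 8.73% in wt AL.

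Hspd1 and Hspe1 encode HSP60 and HSP10, which form the folding chamber of the mitochondrial matrix and its lid. Hspd1 (chromosome 1, 55077834 to 55087932) reached 106 FPKM in Ercc1 DR (95.4 to 98.9), 52.0 FPKM in Ercc1 AL (46.8 to 49.2) and 29.6 FPKM in wt AL (26.5 to 28.5). Hspe1 (chromosome 1, 55088148 to 55091317) reached 74.7 FPKM in Ercc1 DR (53.8 to 58.5), 33.2 FPKM in Ercc1 AL (23.6 to 26.7) and 16.0 FPKM in wt AL (11.2 to 13.6). In both genes the 3 intervals were apart, in the order Ercc1 DR above Ercc1 AL above wt AL.

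The log2 ratio of Hspd1 was 0.31 in Ercc1 AL against wt AL, 0.68 in Ercc1 DR against Ercc1 AL and 1.03 in Ercc1 DR against wt AL. That of Hspe1 was 0.54, 0.82 and 1.40 in the same order. Both were thus past 2-fold higher in Ercc1 DR against wt AL, and as deposited also in Ercc1 DR against Ercc1 AL, at 1.01 and 1.15. The level of Hspd1 over that of Hspe1 was 1.41 in Ercc1 DR, 1.57 in Ercc1 AL and 1.85 in wt AL. With interval midpoints in place of FPKM it was 1.73, 1.91 and 2.23. They overlap by 112 exonic bases on opposite strands in GENCODE M21, and 44.8% of the 50-base stretches of each transcript occur in transcripts of other genes.

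The FPKM fell outside the bounds deposited with it for 7 of the 10 genes in Ercc1 DR, 7 in Ercc1 AL and 6 in wt AL, as it did in 13.0%, 12.9% and 9.70% of all rows. Hspb1 and Hspe1, which have short transcripts, were the farthest out, with FPKM above the interval in every library. With the interval's midpoint in place of the FPKM, all 10 genes kept their call in each comparison. The fragments implied by the interval widths, a rough figure, were fewest for Hspa1a, at 280 in Ercc1 DR, 343 in Ercc1 AL and 133 in wt AL. They were most for Hspa8, at 48079, 31857 and 12465 in the same order.

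Ordered by level, Hspa8 came first, then Hspd1, Hsp90ab1, Hspe1, Hsp90aa1, Hspb1, Hsph1, Dnajb1, Hspa1b and Hspa1a in Ercc1 DR. The order in Ercc1 AL was Hspa8, Hsp90ab1, Hspd1, Hsp90aa1, Hspe1, Hspb1, Hsph1, Dnajb1, Hspa1b and Hspa1a. In wt AL, Hspb1 followed Hspa8 and Hsp90ab1, ahead of Hspd1, Hsp90aa1, Hspe1 and Hsph1. Neighbours whose intervals overlapped were Hspe1 and Hsp90aa1 in Ercc1 DR, Hspb1 and Hsph1 in Ercc1 AL, and in wt AL Hspe1 with Hsph1 and Hspa1b with Hspa1a. In Ercc1 DR the intervals of Hspb1 and Hsph1 were apart in the reverse of their FPKM order, at 8.38 to 10.2 and 10.3 to 11.3.

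**Figure D3:**
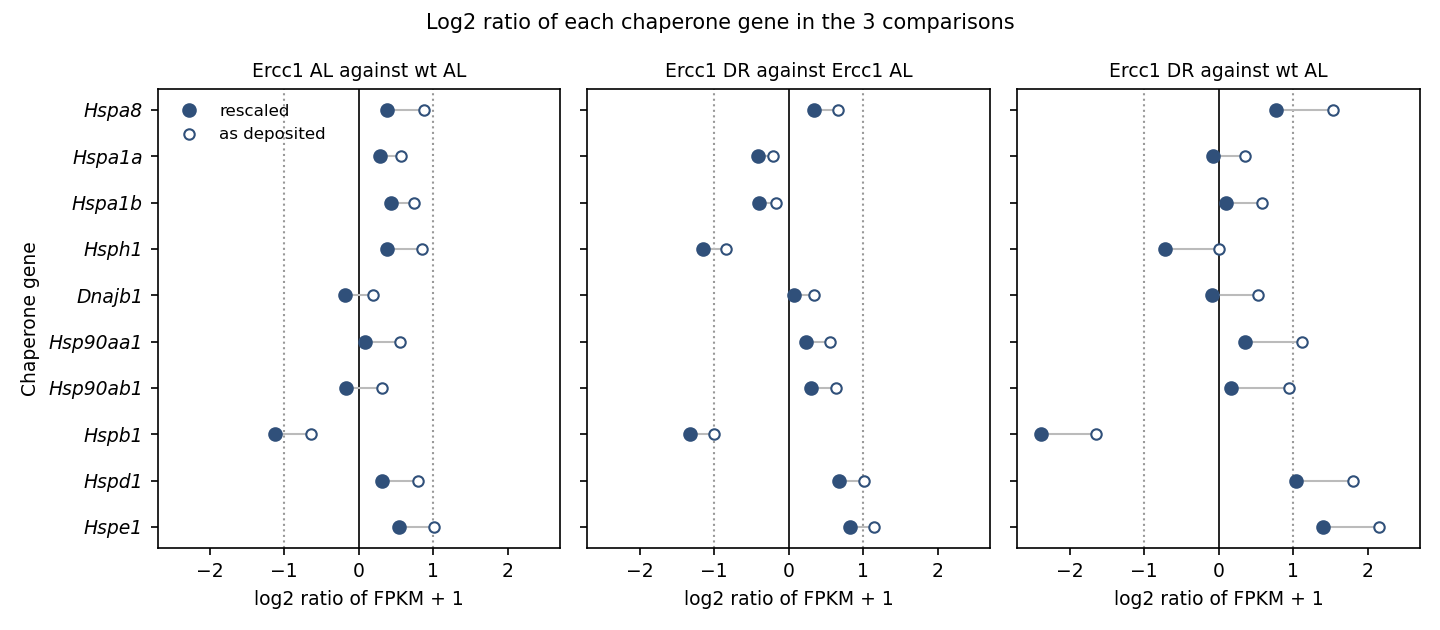
Log2 ratio of FPKM + 1 for the 10 chaperone genes in each comparison, after the general shift was taken out (filled) and as deposited (open), with dotted lines at 2-fold. Hspb1 is at -1.12, -1.32 and -2.39 from left to right, and the direction of Hsp90ab1 and Dnajb1 in Ercc1 AL against wt AL depends on the scaling.

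In Ercc1 AL against wt AL, which asks how the mutation goes with expression under free feeding, none of the 10 chaperones was past 2-fold higher and 1, Hspb1, was past 2-fold lower. Of all 12359 genes measured, 2.35% were past 2-fold higher and 4.90% lower, 7.25% in all. The median log2 ratio of the 10 was 0.30, beside 0.01 over all genes measured. As deposited, 1 gene, Hspe1 at 1.01, was past 2-fold higher and none lower, where 5.80% of all genes were higher and 2.20% lower. The deposited intervals were apart and higher for 8 of the 10 and lower for 1, beside 61.6% and 10.9% of all genes, or 72.5% together.

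In Ercc1 DR against Ercc1 AL, which asks how diet goes with expression within the mutant, none was past 2-fold higher and 2, Hsph1 and Hspb1, were past 2-fold lower. Among 12361 genes measured, 3.12% were higher and 12.0% lower, 15.1% in all. The median of the 10 was 0.15, beside -0.06 over all genes. As deposited, Hspd1 and Hspe1 were past 2-fold higher and Hspb1 lower, where 6.50% and 8.71% of all genes were, 15.2% in all. Intervals were apart and higher for 6 and lower for 2, beside 47.4% and 26.9% of all genes, or 74.3% together.

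In Ercc1 DR against wt AL, 2 of the 10, Hspd1 and Hspe1, were past 2-fold higher and 1, Hspb1, lower. Of 12127 genes measured, 6.02% were higher and 16.4% lower, 22.4% in all. The median of the 10 was 0.13, beside -0.03 over all genes. As deposited, Hsp90aa1 and Hspa8 joined the higher genes, which made 4 higher and 1 lower, where 24.0% of all genes were higher and 8.63% lower, 32.7% in all. Intervals were apart and higher for 8 and lower for 1, beside 62.6% and 20.5% of all genes, or 83.1% together. The chaperones' shares with intervals apart were 9, 8 and 9 of 10 in the 3 comparisons, near those of all genes. Across all genes past 2-fold, the share that was higher was 32.5%, 20.7% and 26.8% in the 3 comparisons after the shift and 72.5%, 42.7% and 73.6% as deposited. With libraries scaled to their FPKM sum without small RNA genes and the top 100 genes, it was 42.9% in Ercc1 AL against wt AL.

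Other genes of the folding network were taken from lists, described by counts. These stand beside the shares of all genes past 2-fold given above. As deposited, 24.0% of all genes were past 2-fold higher in Ercc1 DR against wt AL, and 6.50% in Ercc1 DR against Ercc1 AL. Of the 12 mitochondrial import and quality control genes, 1 was past 2-fold higher and none lower in Ercc1 DR against Ercc1 AL, with a median of 0.42, and likewise in Ercc1 DR against wt AL, with a median of 0.37. As deposited, 3 of 12 and 6 of 12 were past 2-fold higher in these comparisons, with medians of 0.71 and 1.03. After the shift the gene was in both Hspa9, the mitochondrial HSP70 that hands proteins to the Hspd1 chamber. Hspa9 was at 110 FPKM in Ercc1 DR, 37.4 FPKM in Ercc1 AL and 22.8 FPKM in wt AL, with log2 ratios of 1.21 in Ercc1 DR against Ercc1 AL and 1.46 in Ercc1 DR against wt AL. Clpx, the unfoldase of the matrix protease, was at 35.1, 15.3 and 12.2 FPKM in the same order and had a log2 ratio of 0.83 in Ercc1 DR against Ercc1 AL. Dnaja3, a mitochondrial J-domain protein, had one of 0.85 in Ercc1 DR against wt AL. In Ercc1 AL against wt AL none of the 12 was past 2-fold and the median was -0.05, or 0.35 as deposited, with the protease subunit Clpp at -0.56 and the disaggregase Clpb at -0.49.

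The 8 subunits of CCT, the cytosolic chaperonin that folds actin and tubulin, were above 0 in every comparison. None was past 2-fold in Ercc1 AL against wt AL, with a median of 0.40, or in Ercc1 DR against Ercc1 AL, with a median of 0.59, and as deposited 1 was higher in each. In Ercc1 DR against wt AL, 3 of 8 were past 2-fold higher and the median was 0.95, while as deposited all 8 were. Cct4 was at 34.7 FPKM in Ercc1 DR, 14.7 FPKM in Ercc1 AL and 6.12 FPKM in wt AL, and Cct2 was at 31.1, 15.2 and 7.11 FPKM. Prefoldin subunits, which deliver chains to CCT, had a median of 0.52 in that comparison over 5 genes with none past 2-fold, and Pfdn2 stood highest at 0.84. As deposited, 3 of the 5 were past 2-fold higher and the median was 1.08.

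Counts for partners of the cytosolic HSP90 and HSP70 depended on the scaling. Of 11 HSP90 co-chaperones, none was past 2-fold in Ercc1 AL against wt AL, 1 was higher in Ercc1 DR against Ercc1 AL, and 1 was higher and 1 lower in Ercc1 DR against wt AL. As deposited, 4 of the 11 were past 2-fold higher and none lower in the last comparison, with a median of 0.76 in place of 0.11. The gene higher after the shift was Fkbp5, an HSP90 partner in glucocorticoid receptor complexes and itself glucocorticoid-induced, at 28.2 FPKM in Ercc1 DR, 8.64 FPKM in Ercc1 AL and 5.64 FPKM in wt AL. The lower was Cdc37, which brings kinases to HSP90, at 2.95, 3.21 and 4.91 FPKM in the same order. Of the J-domain proteins, Dnaja2 was past 2-fold higher in Ercc1 DR against wt AL, at 24.9 against 6.61 FPKM, and after the shift the other 11 measured were within 2-fold. As deposited, 7 of the 12 were past 2-fold higher, with a median of 1.13 in place of 0.45.

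None of 7 other HSP70 and HSP110 genes was past 2-fold in that comparison, and after the shift none of 10 heat shock regulators was in any comparison. As deposited, 1 regulator was past 2-fold higher in Ercc1 DR against Ercc1 AL and 2 were in Ercc1 DR against wt AL. Hsf1, the main heat shock factor, named for its role after the values were seen, was at 1.99 FPKM in Ercc1 DR, 1.80 FPKM in Ercc1 AL and 1.49 FPKM in wt AL. Of the regulators, Bag4, an HSP70 nucleotide exchange factor, had a log2 ratio of 0.85 and Hspbp1, another exchange factor, -0.88 in Ercc1 DR against wt AL. Only 2 of 6 other small heat shock proteins reached 1 FPKM. Hspb8, which works with Bag3 in selective autophagy, was at 30.0 FPKM in Ercc1 DR, 25.6 FPKM in Ercc1 AL and 11.4 FPKM in wt AL, as deposited an order opposite to that of Hspb1. After the shift its log2 ratio was -0.10 in Ercc1 DR against Ercc1 AL.

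**Figure D4:**
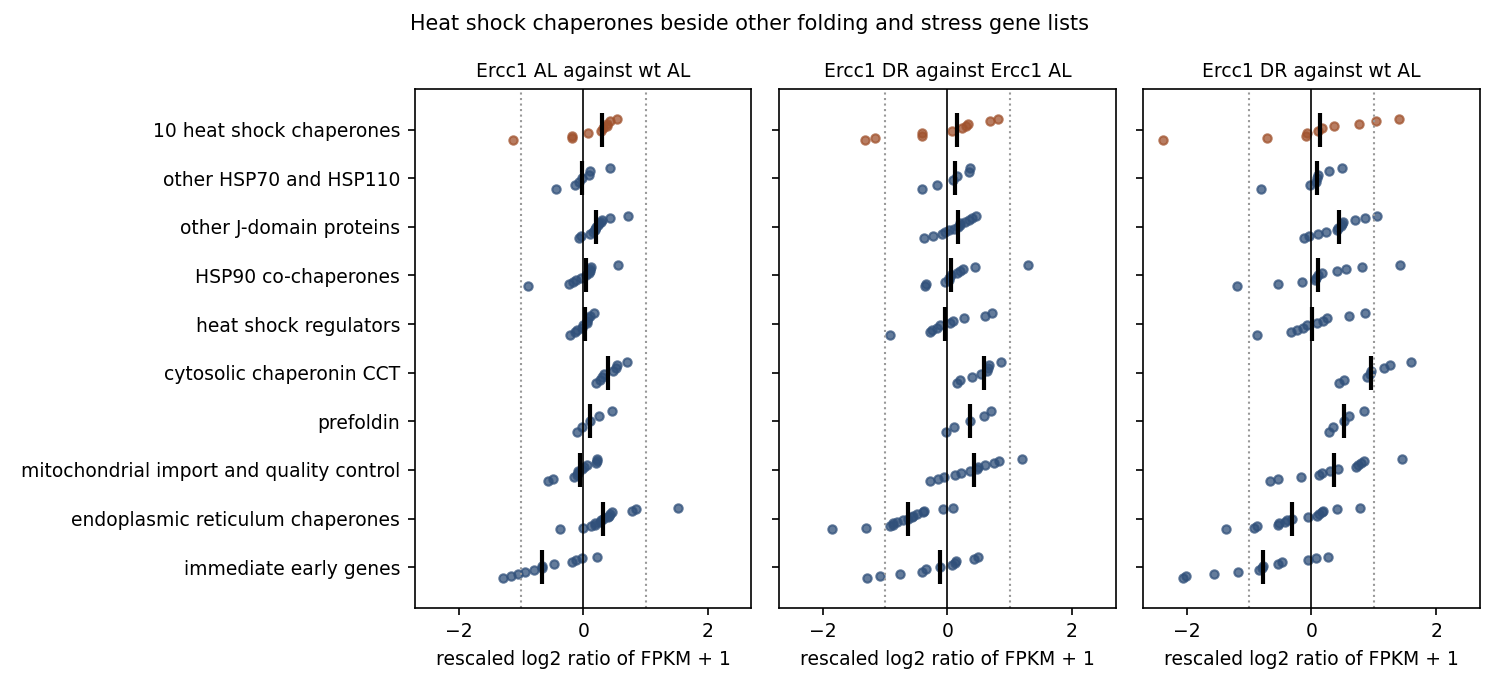
Rescaled log2 ratio of FPKM + 1 of each measured gene (points) and the median (bar) for the 10 heat shock chaperones and 9 other lists in the 3 comparisons, with dotted lines at 2-fold. CCT subunits are all above 0, and endoplasmic reticulum chaperones have a median of -0.63 in Ercc1 DR against Ercc1 AL.

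Chaperones of the endoplasmic reticulum had a median near that of the 10 heat shock chaperones in Ercc1 AL against wt AL and a lower median in the comparisons with Ercc1 DR. In Ercc1 DR against Ercc1 AL, 2 of 15 were past 2-fold lower and none higher, with a median of -0.63, beside 0.15 for the 10 heat shock chaperones, or -0.38 and 0.45 as deposited. The lower genes were Hyou1, an HSP70-like chaperone with 10.7 FPKM under diet restriction (Ercc1 DR) against 22.1 FPKM for Ercc1 AL, and Creld2 with 4.68 against 15.6 FPKM. When Ercc1 AL was set against wt AL, 1 was higher, Dnajb9 at 1.52, with a median of 0.31, beside 0.30 for the 10. In Ercc1 DR against wt AL 1 was lower, with a median of -0.32, beside 0.13 for the 10. As deposited, 3 were higher in Ercc1 AL against wt AL, 1 was lower in Ercc1 DR against Ercc1 AL, and 2 were higher and none lower in Ercc1 DR against wt AL, where the median was 0.43. The cold-inducible RNA-binding gene Rbm3 was at 20.8 FPKM in Ercc1 DR, 8.19 FPKM in Ercc1 AL and 3.79 FPKM in wt AL, past 2-fold higher in Ercc1 DR against wt AL, and Cirbp had a log2 ratio of 0.73.

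The labelled tissue was checked against 12 hepatocyte markers. Of these 11 had an estimate and were at or above 1 FPKM in all libraries, and Alb was missing, with the status HIDATA. Their sum was 11709 FPKM in Ercc1 DR, 5701 FPKM in Ercc1 AL and 4570 FPKM in wt AL. Sums of Kupffer cell and macrophage markers were between 21.6 and 34.3 FPKM, stellate cell markers between 24.7 and 44.8 FPKM, erythroid markers between 109 and 175 FPKM, and cholangiocyte, neutrophil and lymphoid markers each under 10 FPKM. No marker with an estimate was at 0. Hepatocyte markers were thus highest in Ercc1 DR, as were Hspa8, Hspd1 and Hspe1, and their part in those values was not tested.

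The genes whose pattern over the 3 libraries was most like the median of the 10 chaperones were Rer1, Sec61g, C1galt1c1, Edem1 and Trpm7, by distance between pairs of log2 ratios among 4218 genes with official symbols and at least 5 FPKM in a library. Rer1 was at 22.5 FPKM in Ercc1 DR, 16.0 FPKM in Ercc1 AL and 9.11 FPKM in wt AL. The 10 chaperones were themselves spread around that median. Hspa8 was 0.20 away with 386 genes nearer, and Hspb1 2.04 away with 3915 genes nearer. A likeness over 3 libraries is a description only.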

How the data were processed

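Liver RNA of 3 libraries was analysed, 1 each for Ercc1 DR, Ercc1 AL and wt AL, grouped by their titles. The deposited values are FPKM with a lower and an upper bound and a status, per the file headers, and the submitters' processing notes name the build mm10. No source used here names the quantifier or its annotation. The tables hold no counts. Interval widths, taking each bound as 2 SD, imply 25.03 M fragments in Ercc1 DR, 25.1 M in Ercc1 AL and 19.0 M in wt AL.

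Rows with status HIDATA or FAIL were treated as missing; none was a chaperone here. Of rows sharing a symbol, the highest was used for lists. Deposited starts count from 0 and were raised by 1, as checked against RefSeq. Ratios were log2 of FPKM + 1 over genes at 1 FPKM or more in either library, after removing the median shift equally from both libraries. Python 3.11.15 with numpy 2.4.6 and pandas 2.3.3 was used, and the rescaling was tested on simulated data. Genes named beyond the 10 were the 2 with the largest ratio in each list and comparison and the 5 most alike. Members and lists were chosen with earlier results of these data known. Shared sequence was counted as 50-base stretches in GENCODE M21 transcripts. Alternatives were scaling, pseudocount, filter and interval midpoint.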

Additional observations from a re-analysis of the deposited data

How the results depend on the processing

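As deposited, without rescaling, members past 2-fold higher and lower numbered 1 and 0 in Ercc1 AL against wt AL, 2 and 1 in Ercc1 DR against Ercc1 AL, and 4 and 1 in Ercc1 DR against wt AL, with medians of 0.65, 0.45 and 0.76. Scaled to the FPKM sum without small RNA genes and the top 100 genes, the number past 2-fold lower in Ercc1 AL against wt AL was 0. With a filter of 5 FPKM, which leaves 7 of the 10 genes, the median was 0.30 in Ercc1 DR against Ercc1 AL and 0.35 in Ercc1 DR against wt AL. With the intervals rescaled, those apart and lower numbered 2, 4 and 2 in the 3 comparisons, and those apart and higher in Ercc1 DR against wt AL numbered 5. The share of all genes with rescaled intervals apart was not computed, so whether these numbers are unusual cannot be said. A pseudocount of 0.1, no filter and the interval midpoint changed none of the counts past 2-fold. Hspb1 in Ercc1 DR against wt AL ranged from -2.50 to -1.65, Hspd1 from 1.02 to 1.80 and Hspe1 from 1.35 to 2.15 over the settings, all past 2-fold. Hspb1 in Ercc1 AL against wt AL ranged from -1.15 to -0.64 and Hsph1 in Ercc1 DR against Ercc1 AL from -1.22 to -0.84. No paired analysis was possible because each group has 1 library and no test was made. With 1 library a group, depth limits only the precision within a library, least for Hspa1a.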
